A study of Mus musculus with 6 samples.

Results

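Basement membrane genes were examined in lineage-traced cells of the mouse aortic root and ascending aorta. The set held 30 genes, namely the collagen IV, XV and XVIII chains, laminin chains, nidogens, perlecan, agrin and the proteins that link or crosslink them. They were taken by symbol and not by their values, but with earlier results of these data known. Each of the 30 had a row among the 24421 rows of the expression matrix. The study compared cells derived from the secondary heart field (SHF) with cells derived from the cardiac neural crest (CNC), the embryonic sources of smooth muscle in this part of the aorta. Both groups of mice were on the 129S6/SvEv strain, were 8 weeks old, received no treatment and carried the conditional *CAG-Sun1/sfGFP* tracer allele, which labels a cell and its descendants with GFP once Cre has acted. In SHF mice the Cre came from the *Mef2cSHF* allele and in CNC mice from *Wnt1-Cre2*, and living GFP+ cells were sorted from digested tissue. The labels mark a lineage, not a cell type, so any GFP+ descendant could enter the sort. There were 3 libraries per lineage, which the study calls biological replicates, and wherever 3 values of a lineage are given they follow the order of replicates 1 to 3. The values are transcripts per 1000000 transcripts (TPM), that is, reads scaled by transcript length and to a fixed library total, so levels can be compared between genes, but they keep no record of depth and no counting interval could be given.

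Basement membranes are thin sheets of matrix that surround each smooth muscle cell, underlie the endothelium and ensheathe nerves and fat. Collagen IV and laminin each form a network, nidogens and the heparan sulfate proteoglycans perlecan and agrin tie the networks together, and integrins and dystroglycan hold the cell to them. A laminin is built of one alpha, one beta and one gamma chain, and a collagen IV molecule of 3 alpha chains.

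The genes of collagen IV lie in head-to-head pairs that share the DNA between their starts. *Col4a1* and *Col4a2* on chromosome 8 of GRCm38 have annotated starts that overlap by 22 bases. *Col4a4*, on the minus strand of chromosome 1 at 82448423 to 82586849, and *Col4a3*, on the plus strand at 82586921 to 82722059, leave 71 bases between them. *Col4a6*, on the minus strand of chromosome X at 141165403 to 141474076, and *Col4a5*, on the plus strand at 141475385 to 141689234, leave 1308 bases. Sequences upstream of these starts are shown because the paired genes differed in level, as described below, and that of *Nid1* because its lineages did not overlap. The stretches come from RefSeq promoter windows on GRCm38.p6, cut so that no base lies within an annotated gene. They are chr1:82586850-82586920 and chrX:141474077-141474326, both read from the minus strand, and chrX:141475169-141475384 and chr13:13437352-13437550, both read from the plus strand. Capitals mark a GC box (GGGCGG) or a CCAAT box (CCAAT), searched on both strands together with a TATA box (TATAAA).
*Col4a4* and *Col4a3*, between starts: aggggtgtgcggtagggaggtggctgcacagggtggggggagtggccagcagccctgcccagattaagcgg
*Col4a6*, upstream: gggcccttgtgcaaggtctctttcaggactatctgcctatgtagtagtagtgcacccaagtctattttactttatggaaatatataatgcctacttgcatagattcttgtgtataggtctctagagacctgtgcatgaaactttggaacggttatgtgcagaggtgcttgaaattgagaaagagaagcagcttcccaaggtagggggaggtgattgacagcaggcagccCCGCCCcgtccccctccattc
*Col4a5*, upstream: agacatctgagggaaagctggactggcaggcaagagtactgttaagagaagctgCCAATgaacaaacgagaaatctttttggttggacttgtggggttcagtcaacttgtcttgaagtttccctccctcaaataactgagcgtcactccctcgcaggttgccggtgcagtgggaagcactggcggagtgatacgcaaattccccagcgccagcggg
*Nid1*, upstream: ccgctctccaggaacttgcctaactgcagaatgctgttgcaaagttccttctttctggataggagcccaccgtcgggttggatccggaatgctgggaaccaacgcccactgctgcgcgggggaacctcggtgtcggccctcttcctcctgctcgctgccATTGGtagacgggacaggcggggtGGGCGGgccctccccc

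The 71 bases between *Col4a4* and *Col4a3* held none of these letters and were 69.0% G or C. The *Col4a6* stretch held 1 GC box and the *Col4a5* stretch 1 CCAAT box, and that of *Nid1* held 1 of each. The same slice of all 32851 RefSeq promoter windows held a GC box in 32.7% for the *Col4a6* slice and a CCAAT box in 30.5% for the *Col4a5* slice, and for that of *Nid1* 24.4% held a GC box and 28.2% a CCAAT box. For the 71-base slice these were 20.7% and 13.3%, and 4.41% held a TATA box. None of the stretches held a TATA box. These matches describe the letters only, and the windows of *Col4a3*, *Lamc1* and *Smoc2* are not shown.

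Basement membrane genes made up a small part of the RNA. Their summed level was 2589, 2657 and 2416 TPM in SHF and 3410, 2606 and 3649 TPM in CNC, which is 0.242% to 0.365% of a library. CNC replicates 1 and 3 were above each SHF library and CNC replicate 2 lay within the SHF range, and the sum was not tested. Of the 30 genes, 23 were above 0 in all 6 libraries, 4 were at 0 in some and 3 were at 0 in all. By mean level, 7 genes were at 100 TPM or more, in the order *Smoc2*, *Col4a1*, *Col4a3*, *Lamb2*, *Col4a2*, *Nid1* and *Smoc1*. *Smoc2* ranked 170 of all genes in the matrix by mean TPM, while *Lama5*, the lowest of the genes detected in every library, ranked 9101.

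**Figure D1:**
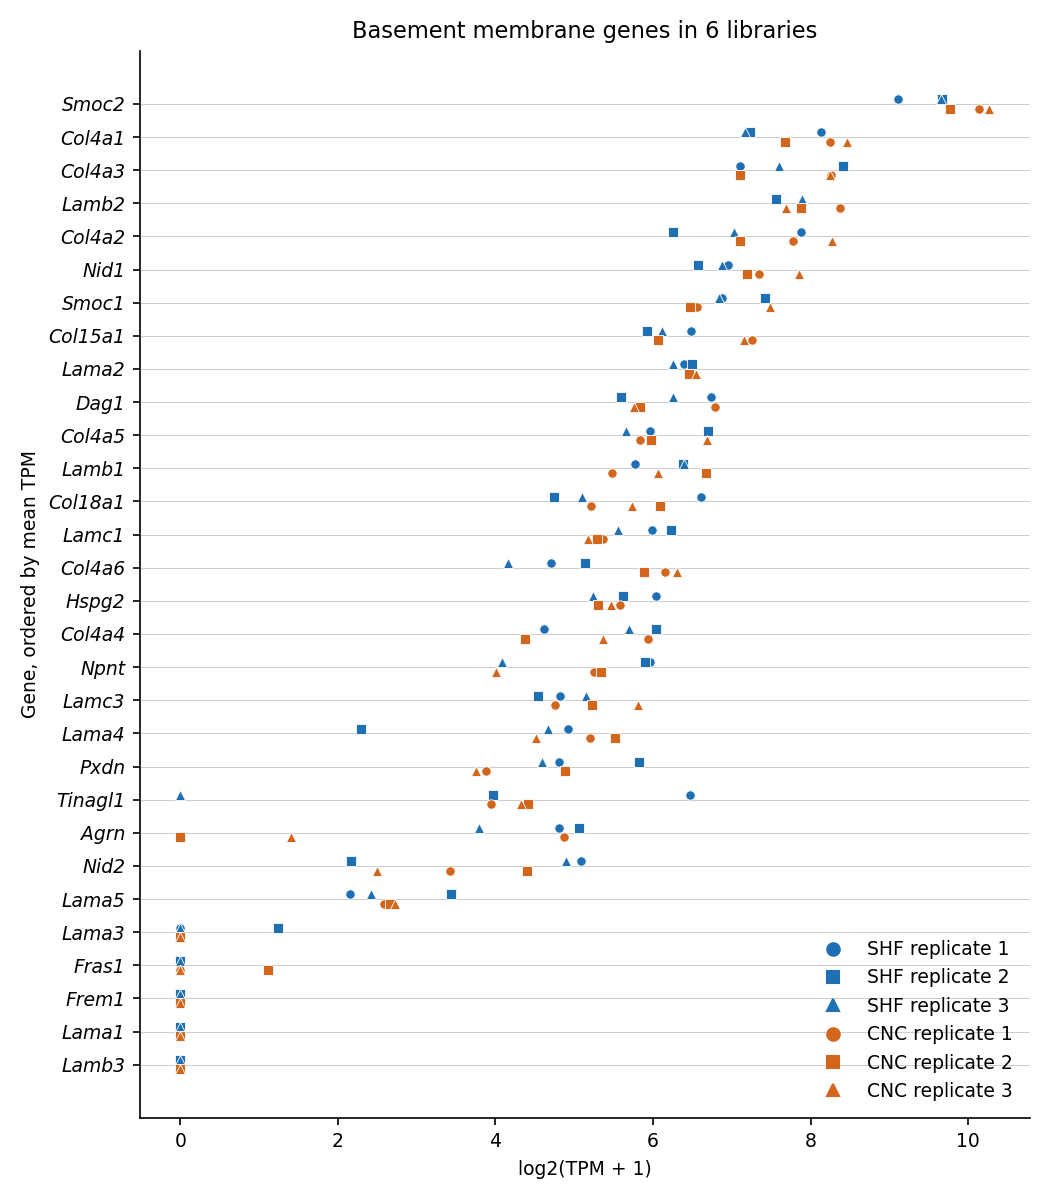
Each row is a basement membrane gene, ordered by mean TPM, and each point is a library, placed by log2(TPM + 1). Blue points are SHF and orange points CNC libraries, and the shape gives the replicate. *Smoc2* stands apart at the top, and *Lama1*, *Lamb3* and *Frem1* are listed at 0 in all 6 libraries.

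The level of no basement membrane gene passed the test for a difference between SHF and CNC cells. By limma on log2(TPM + 1) with Benjamini-Hochberg adjustment over all 10185 genes tested, 0 of the 25 basement membrane genes tested had an adjusted p under 0.05, and across all genes 0 did (0%). The adjusted p-values of the 25 ran from 0.812 to 0.999. At an unadjusted p under 0.05 there was 1, *Col4a6*, higher in CNC, where 3.17% of all genes tested were higher in CNC and 2.69% higher in SHF. *Col4a6* was no longer under it with any library other than SHF replicate 2 left out, where limma's unadjusted p ran from 0.0536 to 0.108. A further 5, *Lama1*, *Lama3*, *Lamb3*, *Fras1* and *Frem1*, did not reach 1 TPM in at least 3 libraries and were not tested. None of the 30 was exclusive to a lineage by a rule read from the study's threshold of 5 TPM, over that level throughout one lineage and, as taken here, 0 throughout the other, which 0.139% of all rows met. The log2 fold change, SHF minus CNC, was positive for 11 and negative for 14 of the 25, with a median of -0.10 against 0.02 over all genes tested. The 95% interval of a log2 fold change was from 1.19 to 6.60 wide, so missing the threshold does not show that the lineages were alike.

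**Figure D2:**
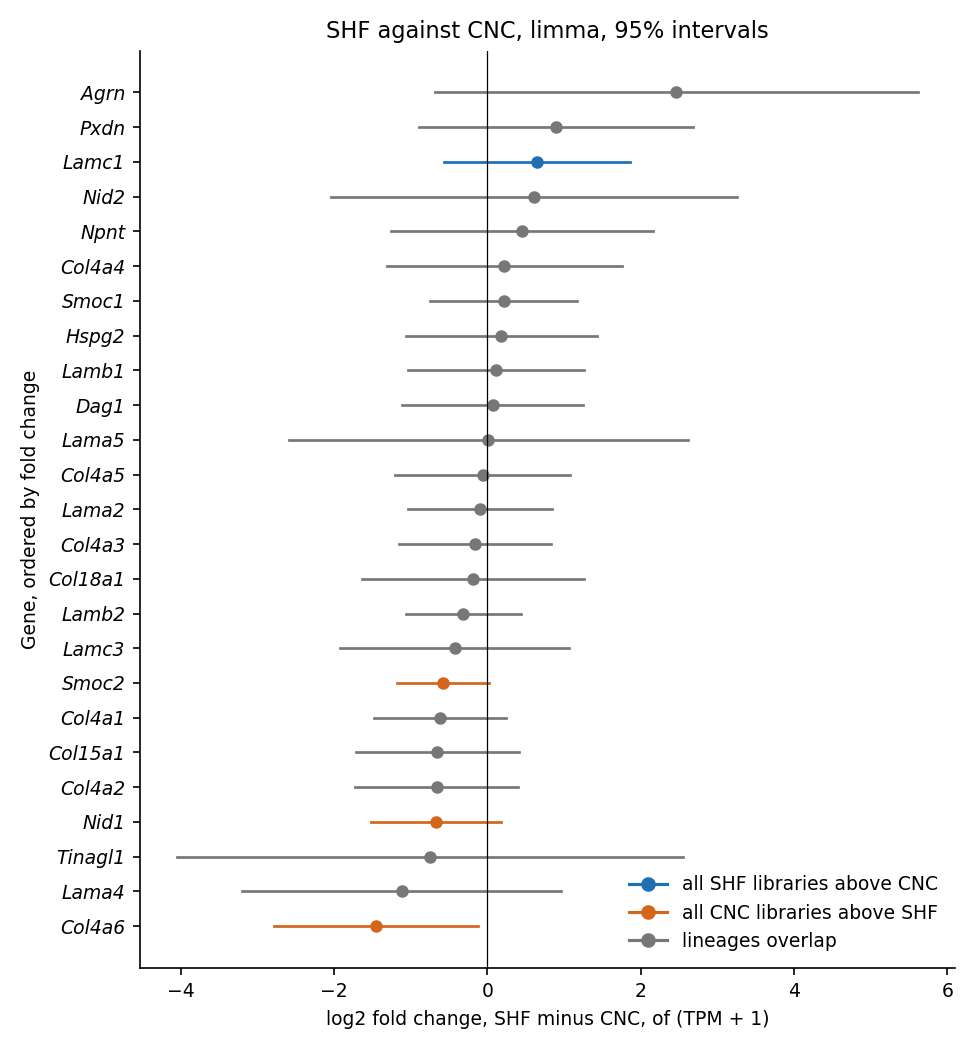
Points are limma log2 fold changes, SHF minus CNC, of TPM + 1 for the 25 genes tested, and lines are 95% intervals. Intervals are widest for *Tinagl1* and *Agrn*, which were listed at 0 in a library, and that of *Col4a6* alone lies on one side of 0 before adjustment for the number of genes tested.

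In 4 genes the libraries of the lineages did not overlap. CNC libraries were all above SHF libraries for *Col4a6*, *Nid1* and *Smoc2*, 3 of the 25 genes tested (12%), against 5.68% of all genes tested. SHF libraries were all above CNC libraries for *Lamc1*, 1 of 25 (4%), against 6.11% of all genes. The exact two-sided permutation p of each was 0.1, the smallest that 3 libraries against 3 can give.

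**Figure D3:**
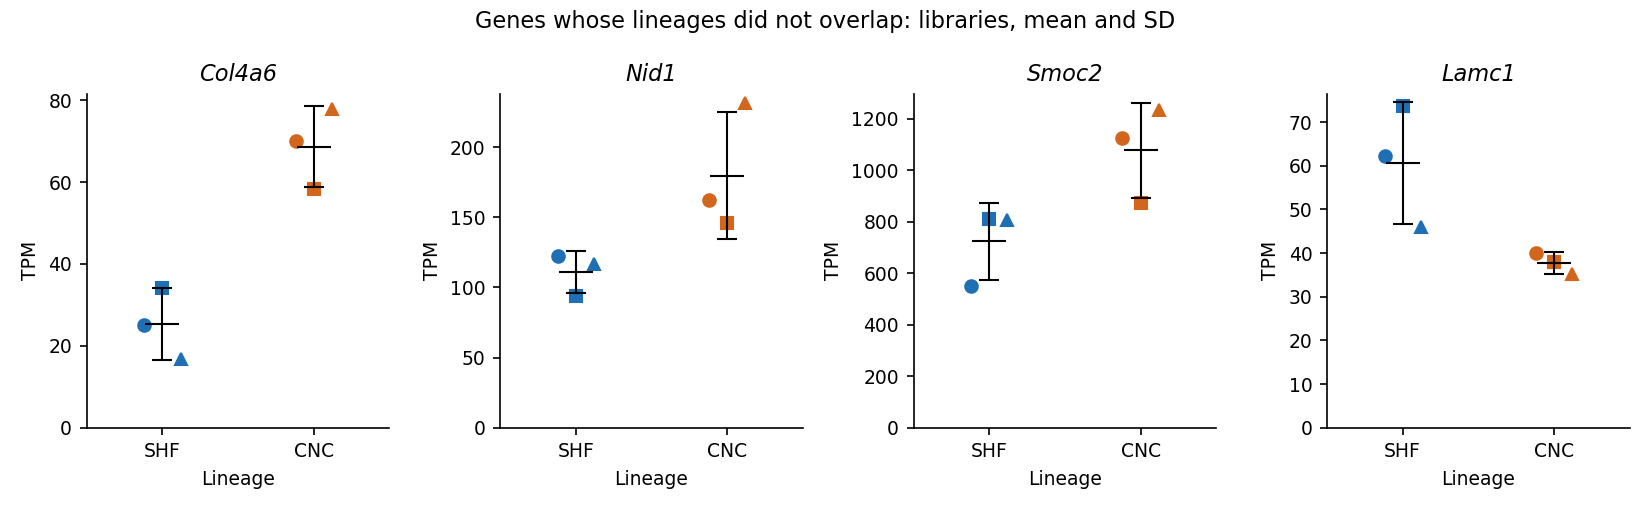
TPM in each library for *Col4a6*, *Nid1*, *Smoc2* and *Lamc1*, with circles, squares and triangles for replicates 1, 2 and 3. Bars give the mean and the SD of 3 libraries. The highest SHF value lies below the lowest CNC value in the first 3 panels and the order is turned in the last.

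The largest of these differences was in *Col4a6*, which encodes a chain that assembles with the product of *Col4a5* in the basement membranes of smooth muscle and some epithelia. It was at 25.01, 34.2 and 16.8 TPM in SHF and at 70.0, 58.2 and 77.8 TPM in CNC. The mean was 25.3 ± 8.7 TPM (SD, n = 3) in SHF and 68.7 ± 9.9 TPM (SD, n = 3) in CNC, 2.71 times higher in CNC. The log2 fold change was -1.45 ± 0.60 (SE), with an adjusted p of 0.812 by limma. It ran from -1.69 to -1.19 when each library was left out in turn.

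*Col4a6* and *Col4a5* are X-linked, and the libraries differed in sex-linked transcripts. *Xist*, which is expressed from the inactive X chromosome, had 0, 52.0 and 38.8 TPM in SHF and 0 in each CNC library. In SHF replicate 1, which like the CNC libraries had the Y-linked *Ddx3y* (61.3 TPM there and from 42.2 to 52.8 TPM in CNC), *Col4a6* was at 25 TPM, below each CNC library and between the other SHF libraries. SHF replicates 2 and 3 differed from every CNC library in these transcripts, which bears on each comparison of the lineages, and the part of sex in the values was not tested. *Col4a5*, its head-to-head neighbour, was at 61.5, 102.6 and 49.3 TPM in SHF and 56.3, 61.7 and 102.4 TPM in CNC, so that the lineages overlapped throughout. The ratio of *Col4a5* to *Col4a6* was 2.46, 3.00 and 2.93 in SHF and 0.805, 1.06 and 1.32 in CNC. This ratio, like the other chain sums, shares and ratios below apart from those of *Lama2*, *Lama4*, *Lamb2*, *Nid1* and *Col4a1* to *Col4a2*, was looked at after the values were seen, and none of them has a test.

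The main collagen IV chains, encoded by *Col4a1* and *Col4a2*, are found in nearly all basement membranes and join in one molecule. *Col4a1* was at 279.4, 149.3 and 142.7 TPM in SHF and at 303.2, 203.8 and 351.0 TPM in CNC. *Col4a2* was at 234.2, 75.6 and 129.2 TPM in SHF and at 218.4, 136.6 and 307.9 TPM in CNC. Both means were about 1.5 times higher in CNC, but SHF replicate 1 was above CNC replicate 2 for each gene and the lineages overlapped. The log2 fold changes were -0.62 ± 0.39 (SE) for *Col4a1* and -0.66 ± 0.49 (SE) for *Col4a2*, with adjusted p-values of 0.874 and 0.887 by limma. That of *Col4a2* was -0.27 when SHF replicate 2 was left out and -0.39 when CNC replicate 3 was, and both genes were further from 0 without SHF replicate 1, at -0.93 for *Col4a1* and -1.08 for *Col4a2*. *Col4a1* exceeded *Col4a2* in all 6 libraries. The ratio of *Col4a1* to *Col4a2* was 1.19, 1.98 and 1.10 in SHF and 1.39, 1.49 and 1.14 in CNC, a mean of 1.42 ± 0.48 (SD, n = 3) and 1.34 ± 0.18 (SD, n = 3).

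*Col4a3* was as abundant as *Col4a1*. Its product is known best, with those of *Col4a4* and *Col4a5*, from the filtering basement membrane of the kidney glomerulus. *Col4a3* was at 136.2, 338.9 and 192.6 TPM in SHF and at 304.6, 136.1 and 301.8 TPM in CNC. It was well above *Col4a1* in SHF replicates 2 and 3, level with it in CNC replicate 1 and below it in the other 3 libraries. *Col4a4*, which starts 71 bases away on the other strand, was far lower, at 23.4, 64.6 and 50.7 TPM in SHF and 60.4, 19.8 and 40.1 TPM in CNC. The ratio of *Col4a3* to *Col4a4* ranged from 3.8 to 7.53 over the 6 libraries. Neither gene passed the test, with log2 fold changes of -0.16 ± 0.45 (SE) and 0.22 ± 0.70 (SE) and adjusted p-values of 0.962 and 0.968 by limma. A non-coding transcript on the opposite strand shares 563 bases, or 5.65%, of the exonic length of *Col4a3*, and reads there could belong to either, since the library kit does not keep the strand. The same limit holds for the 10 genes of the set whose exons overlap another gene. Among them are *Lamc3*, by 6.27% of its exonic length, *Lama2*, by 3.86%, and *Nid1*, by 2.06%.

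**Figure D4:**
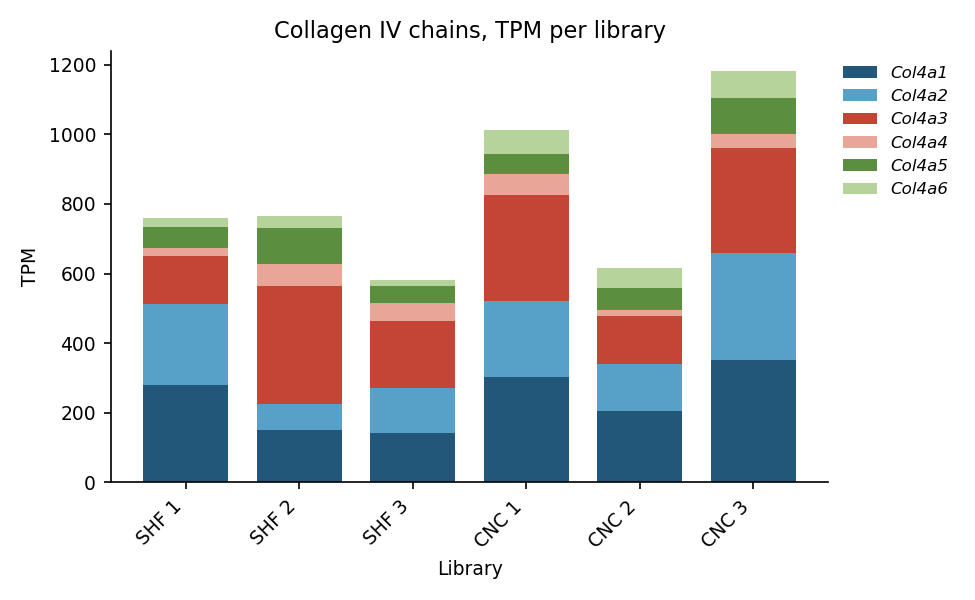
Stacked bars give the TPM of the 6 collagen IV chains in each library, *Col4a1* at the bottom and *Col4a6* at the top. The sum runs from 581 TPM in SHF replicate 3 to 1181 TPM in CNC replicate 3, and *Col4a3* is the broadest band in SHF replicates 2 and 3 and, by a narrow margin, in CNC replicate 1.

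Summed over the 6 chains, collagen IV was at 760, 765 and 581 TPM in SHF and at 1013, 616 and 1181 TPM in CNC. *Col4a1* and *Col4a2* together took 29.4% to 67.6% of it in SHF and 51.5% to 55.8% in CNC. The extremes were both SHF libraries, replicate 2 and replicate 1. *Col4a6* took 2.89% to 4.47% in SHF and 6.59% to 9.45% in CNC, without overlap.

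The multiplexins *Col15a1* and *Col18a1* encode collagens of the outer face of basement membranes, and the latter is the source of endostatin. *Col15a1* was at 88.1, 59.5 and 68.6 TPM in SHF and at 151.8, 66.1 and 141.0 TPM in CNC. CNC replicates 1 and 3 were above each SHF library and CNC replicate 2 was not. *Col18a1* varied more within SHF than between lineages, at 96.8, 25.9 and 33.2 TPM in SHF and 36.1, 66.8 and 52.2 TPM in CNC. The log2 fold changes were -0.65 ± 0.49 (SE) and -0.19 ± 0.66 (SE), with adjusted p-values of 0.888 and 0.971 by limma.

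Among laminin alpha chains, *Lama2* led in every library. It encodes the alpha chain of muscle and peripheral nerve laminins and was the steadiest gene of the set, with a highest library only 1.23 times the lowest. *Lama2* was at 83.3, 89.5 and 75.2 TPM in SHF and at 86.2, 86.9 and 92.5 TPM in CNC, and the log2 fold change was -0.10 ± 0.43 (SE), with an adjusted p of 0.978 by limma. *Lama4*, the chain of vessel wall laminins, was at 29.4, 3.89 and 24.5 TPM in SHF and at 35.7, 44.99 and 21.9 TPM in CNC. SHF replicate 2 lay far below the other 5 libraries, and *Lama4* had a log2 fold change of -1.12 ± 0.95 (SE) and an adjusted p of 0.895 by limma. Without that library the log2 fold change of *Lama4* was -0.28.

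*Lama5*, another chain of vascular basement membranes, was low, from 3.43 to 9.81 TPM, and its highest value was in the library where *Lama4* was lowest. *Lama1*, a chain of early embryonic and some epithelial basement membranes, was listed at 0 throughout, and *Lama3*, an epithelial chain, reached 1.36 TPM in SHF replicate 2 with 0 elsewhere. *Lama2* took 76.5% ± 7.8 (SD, n = 3) of the summed alpha chain TPM in SHF and 69.5% ± 7.0 (SD, n = 3) in CNC, and *Lama4* took 17.5% ± 12 (SD, n = 3) and 26.4% ± 7.4 (SD, n = 3). The share of *Lama2* was highest, at 85.6%, in SHF replicate 2.

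Of the laminin classes the beta chains had the highest summed TPM in every library, through *Lamb2*. *Lamb2*, the beta chain of mature vascular and neuromuscular basement membranes, was at 188.2, 187.3 and 235.7 TPM in SHF and at 332.0, 233.7 and 206.2 TPM in CNC. *Lamb1*, the more widespread beta chain, was at 53.5, 82.5 and 83.4 TPM in SHF and at 43.6, 101.2 and 66.1 TPM in CNC. *Lamb2* was above *Lamb1* in all 6 libraries and took 69.4% to 88.4% of the beta chain TPM, with means of 73.7% ± 4.2 (SD, n = 3) in SHF and 78.0% ± 9.5 (SD, n = 3) in CNC. *Lamb3*, an epithelial chain, was listed at 0 in all libraries. Log2 fold changes were -0.31 ± 0.34 (SE) for *Lamb2* and 0.11 ± 0.52 (SE) for *Lamb1*, with adjusted p-values of 0.904 and 0.981 by limma.

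*Lamc1*, on chromosome 1 at 153218922 to 153332786, encodes the gamma chain of most laminins and was the gene with SHF libraries above CNC libraries. It was at 62.2, 73.7 and 46.0 TPM in SHF and at 40.1, 38.0 and 35.2 TPM in CNC. The mean was 60.6 ± 14.0 TPM (SD, n = 3) against 37.8 ± 2.5 TPM (SD, n = 3), 1.61 times higher in SHF. The log2 fold change was 0.65 ± 0.55 (SE), with an adjusted p of 0.895 by limma. The gap between SHF replicate 3 and CNC replicate 1 was smaller than the SD among SHF libraries.

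*Lamc3*, a gamma chain with a narrower distribution, was at 27.2, 22.2 and 34.5 TPM in SHF and 26.0, 36.4 and 55.1 TPM in CNC, so that *Lamc3* exceeded *Lamc1* only in CNC replicate 3. *Lamc1* took 69.6%, 76.8% and 57.1% of the summed gamma chain TPM in SHF and 60.7%, 51.1% and 39% in CNC.

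The chain classes were not in equal amounts. Beta chain TPM was 2.08 to 3.07 times alpha chain TPM and 2.71 to 5.68 times gamma chain TPM over the 6 libraries. The alpha sum was 116.0, 104.5 and 104.0 TPM in SHF and 126.9, 137.2 and 119.9 TPM in CNC, without overlap. Gamma chains were the least abundant class, from 66.1 to 96.0 TPM. The beta and gamma sums of the lineages overlapped.

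**Figure D5:**
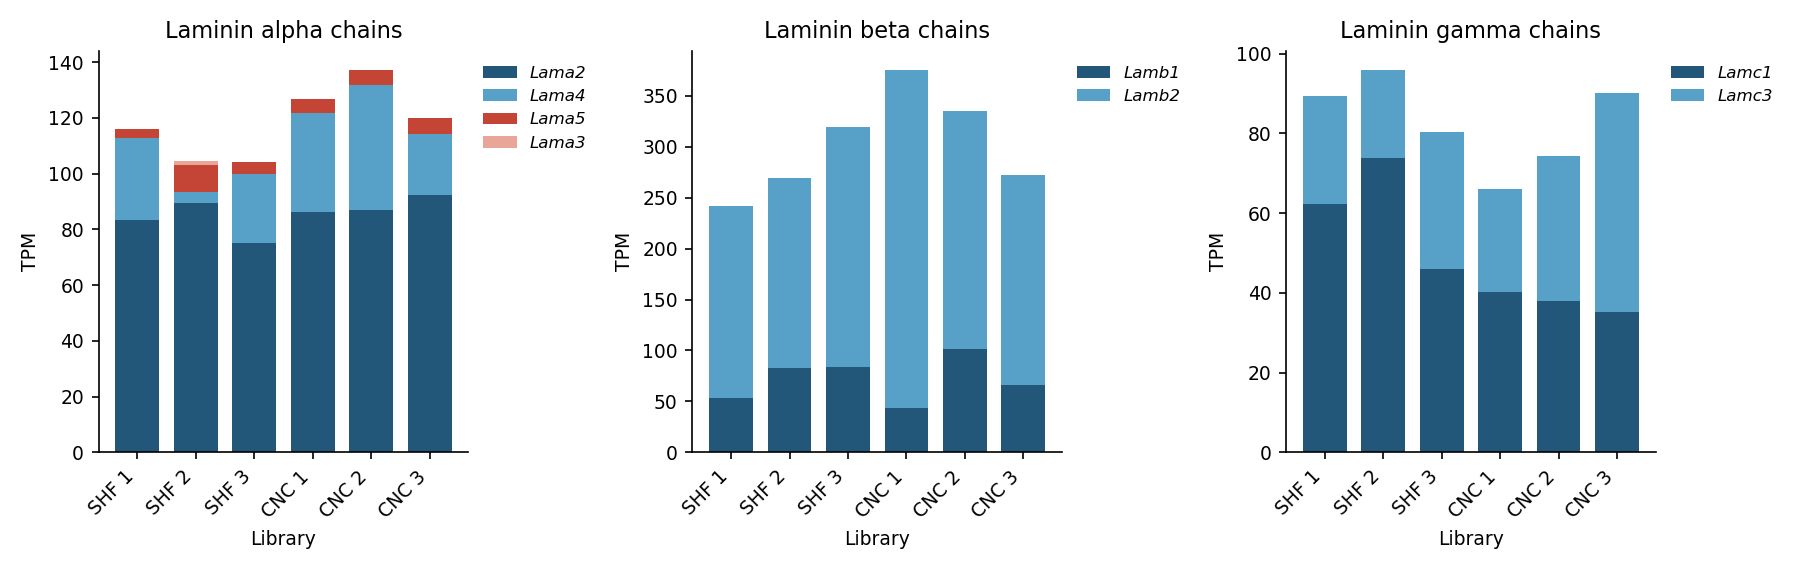
Stacked bars of TPM per library for laminin alpha, beta and gamma chains, each panel with its own scale from 0. *Lama2* and *Lamb2* make up most of their bars in all 6 libraries, and *Lama4* is nearly missing from the bar of SHF replicate 2.

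Nidogens link the laminin and collagen IV networks. *Nid1*, on chromosome 13 at 13437551 to 13512269, was at 122.5, 94.0 and 116.5 TPM in SHF and at 162.0, 145.9 and 231.3 TPM in CNC. The mean was 111.0 ± 15.0 TPM (SD, n = 3) in SHF and 179.7 ± 45.4 TPM (SD, n = 3) in CNC, 1.62 times higher in CNC without overlap. The log2 fold change was -0.67 ± 0.38 (SE), with an adjusted p of 0.874 by limma. *Nid2*, its paralogue, was lower in every library and varied 9.40 times from lowest to highest, at 32.9, 3.50 and 28.7 TPM in SHF and 9.75, 20.1 and 4.64 TPM in CNC. *Nid1* took 85.2% ± 9.8 (SD, n = 3) of nidogen TPM in SHF and 93.4% ± 5.1 (SD, n = 3) in CNC, and the highest share, 98.0%, was in CNC replicate 3. A protein-coding gene on the opposite strand overlaps 8.45% of the exonic length of *Nid2*. That gene was at 85.9 to 265.1 TPM, above *Nid2* in every library. Reads in the overlap could belong to either gene, since the strand is not kept, and their part in the *Nid2* values was not tested.

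The heparan sulfate proteoglycans differed in steadiness. *Hspg2*, which encodes perlecan, was at 65.0, 48.0 and 36.7 TPM in SHF and at 46.9, 38.6 and 43.1 TPM in CNC, with a log2 fold change of 0.18 ± 0.57 (SE). *Agrn*, which encodes agrin, was at 26.9, 32.4 and 12.9 TPM in SHF and at 28.2, 0 and 1.65 TPM in CNC. CNC replicate 1 was within the SHF range and the other CNC libraries were below it. *Agrn* had the largest positive log2 fold change of the 25 genes, 2.46 ± 1.43 (SE), with an adjusted p of 0.874 by limma. It was 3.85 without CNC replicate 1, when the lineages did not overlap, but 1.42 without CNC replicate 2 and 1.43 with a pseudocount of 5. The 0 in CNC replicate 2 may be a failed estimate, so no ratio is given.

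Of the genes that attach cells or crosslink the network, *Dag1*, which encodes dystroglycan, the receptor for laminins, perlecan and agrin, was at 106.0, 47.5 and 75.3 TPM in SHF and at 109.7, 56.0 and 53.4 TPM in CNC. Replicate 1 was highest in both lineages, and the numbers mark separate libraries. *Npnt*, which encodes nephronectin, an integrin ligand, ran from 16.01 to 61.3 TPM in SHF and from 15.1 to 39.6 TPM in CNC. *Pxdn* encodes peroxidasin, the enzyme that crosslinks collagen IV. It was at 26.9, 55.4 and 23.0 TPM in SHF and 13.7, 28.6 and 12.5 TPM in CNC, so that CNC replicate 2 alone was above an SHF library. Log2 fold changes were 0.07 ± 0.54 (SE) for *Dag1*, 0.45 ± 0.78 (SE) for *Npnt* and 0.90 ± 0.81 (SE) for *Pxdn*, and the smallest adjusted p of the 3 was 0.896 by limma. With one library left out *Npnt* ran from 0.02 without CNC replicate 3 to 1.06 without SHF replicate 3, and *Pxdn* fell to 0.52 without SHF replicate 2.

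*Smoc2*, a secreted calcium-binding protein related to SPARC, was the most abundant gene of the set in all 6 libraries. It lies on chromosome 17 at 14279506 to 14404790. *Smoc2* was at 551.8, 811.4 and 807.6 TPM in SHF and at 1125, 873.0 and 1234 TPM in CNC. The lineages did not overlap, but CNC replicate 2 lay only just above SHF replicate 2. The mean was 724 ± 149 TPM (SD, n = 3) in SHF and 1077 ± 185 TPM (SD, n = 3) in CNC, 1.49 times higher in CNC, and the log2 fold change was -0.58 ± 0.27 (SE), with an adjusted p of 0.856 by limma. Quantile normalization brought the lineages of *Smoc2* into overlap, and those of *Lama2* out of it.

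Its paralogue *Smoc1* was at 116.3, 171.2 and 113.1 TPM in SHF and 93.2, 87.5 and 177.6 TPM in CNC, and their ratio ranged from 4.74 to 12.1 over the 6 libraries. *Tinagl1*, which encodes a matricellular protein of basement membranes, was at 87.5, 14.7 and 0 TPM in SHF and 14.4, 20.4 and 19.1 TPM in CNC, so that the highest and the lowest library were both SHF. The Fraser complex genes, which anchor epithelial basement membranes, were all but unseen, with *Fras1* at 1.17 TPM in CNC replicate 2 and at 0 elsewhere and *Frem1* at 0 throughout.

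Markers of cell types were read beside these values. None of the 39 marker genes tested had an adjusted p under 0.05, the smallest being 0.465 by limma, but some summed levels did not overlap between lineages. The sum of 10 fibroblast markers was 29221 to 32484 TPM in SHF and 40269 to 54798 TPM in CNC, without overlap, and all 10 were above 0 in every library. Singly, 6 of the 10 had all CNC libraries above all SHF libraries, against 5.68% of all genes tested. The other 4, *Dcn*, *Lum*, *Pdgfra* and *Dpt*, overlapped. Without the 3 fibrillar collagens *Col1a1*, *Col1a2* and *Col3a1* the sum was 16410 to 17568 TPM in SHF and 18799 to 20957 TPM in CNC. Per 1000 TPM of the sum of all 10, *Col4a6* was at 0.52 to 1.17 TPM in SHF and 1.34 to 1.45 TPM in CNC, still without overlap, and *Lamc1* was at 1.41 to 2.52 TPM in SHF and 0.64 to 0.94 TPM in CNC. *Nid1* and *Smoc2* overlapped on this scale, at 3.22 to 3.89 and 3.10 to 4.22 TPM for *Nid1* and at 17.5 to 27.8 and 21.5 to 22.5 TPM for *Smoc2*. Without the fibrillar collagens in the sum the same pair overlapped and the other did not. These ratios and those below were chosen after the values were seen. The sum of 10 endothelial markers was 99.4 to 622 TPM in SHF and 24.3 to 73.6 TPM in CNC, again without overlap, and *Pecam1* alone of these was above 0 in every library. Per 1000 TPM of the endothelial sum *Lamc1* overlapped, at 88.3 to 625 TPM in SHF and 516 to 1447 TPM in CNC, while *Col4a6*, *Nid1* and *Smoc2* did not. None of those 3 could have overlapped, since the endothelial sum was lower in every CNC library. In the same way *Lamc1* could not overlap on either fibroblast sum, since both were higher in every CNC library. The part of these cells in the values was not tested.

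The sum of 10 smooth muscle markers overlapped, at 1514 to 3201 TPM in SHF and 1344 to 2091 TPM in CNC, with *Des* at 0 in some library. Per 1000 TPM of this sum *Col4a6* was at 7.81 to 22.6 TPM in SHF and 27.9 to 52.0 TPM in CNC and *Nid1* at 38.3 to 62.1 TPM and 69.8 to 137.3 TPM, both without overlap. *Lamc1*, at 19.4 to 48.7 TPM and 18.2 to 29.9 TPM, and *Smoc2*, at 172.4 to 536 TPM and 418 to 837 TPM, overlapped on it. Sums of 5 pericyte markers were 199 to 511 TPM in SHF and 425 to 465 TPM in CNC. Sums of 9 Schwann cell markers were 12.5 to 28.0 TPM and 25.6 to 102.8 TPM, with *Mag* among those at 0 in all libraries, and those of 5 mesothelial markers 0 to 88.3 TPM and 0 to 26.4 TPM, with *Msln* at 0 in all. Leukocyte markers, 6 in number, summed to 0 to 36.4 TPM and 8.0 to 84.7 TPM, with *Ptprc* and *Cd3e* at 0 in all, and 6 cardiomyocyte markers to 87.4 to 116.0 TPM in SHF and 0 to 37.7 TPM in CNC, with *Myl2* at 0 in all. In these sorted populations more cells of a type and more RNA per cell cannot be told apart.

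The genes that bind, build and modify basement membranes were read beside the set from lists of receptors, of enzymes and chaperones for collagen chains, of other components and of dystroglycan glycosylation. Of 16, 13, 8 and 7 genes tested in these lists, none had an adjusted p under 0.05 by limma. At an unadjusted p under 0.05 there were 2 receptors higher in SHF, and 2 enzymes or chaperones and 2 other components higher in CNC. That is 12.5%, 15.4% and 25% of the genes tested in these lists, where 2.69% of all genes tested were higher in SHF and 3.17% higher in CNC. In the opposite direction each of these lists had 0%, and dystroglycan glycosylation had 0% either way. Each share above 0% rests on 2 genes, in lists chosen with earlier results of these data known. The 3 most abundant receptors were *Sdc4*, *Itgb1* and *Sdc2*. *Sdc4*, a heparan sulfate receptor of focal adhesions, was at 447, 588 and 532 TPM in SHF and 342, 357 and 289 TPM in CNC, without overlap. *Itgb1*, the beta chain shared by the laminin and collagen integrins, was at 390, 410 and 372 TPM in SHF and 270, 310 and 394 TPM in CNC, with overlap. *Sdc3*, another syndecan and one of the 2 receptors counted above, is named after its values were seen, and was at 109.9, 106.8 and 50.7 TPM in SHF and 32.0, 11.0 and 1.58 TPM in CNC, with a log2 fold change of 3.08 ± 0.96 (SE) and an adjusted p of 0.629 by limma. *Sdc2*, a related syndecan, was at 171, 104 and 157 TPM and 190, 180 and 91.8 TPM.

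*Serpinh1*, the collagen chaperone of the endoplasmic reticulum, was at 843, 789 and 484 TPM in SHF and at 1638, 2240 and 1945 TPM in CNC. Each CNC library was well above each SHF library, and the log2 fold change was -1.49 ± 0.28 (SE), but the adjusted p was 0.465 by limma. *P3h1* and *P3h3*, both prolyl 3-hydroxylases, are likewise named after their values were seen and lay opposite ways. *P3h1*, the other gene of this list counted above, was at 19.6, 25.6 and 63.7 TPM in SHF and 68.8, 104.4 and 100.0 TPM in CNC, with a log2 fold change of -1.46 ± 0.60 (SE) and an adjusted p of 0.812 by limma. *P3h3*, which was not among those counted, was at 39.7, 27.6 and 46.5 TPM in SHF and 1.92, 13.9 and 14.4 TPM in CNC, with an adjusted p of 0.861 by limma. *P4hb*, a subunit of the prolyl hydroxylase, ran from 920 to 1322 TPM in SHF and from 1171 to 1426 TPM in CNC, and *Crtap*, a partner of a prolyl hydroxylase, from 314 to 476 TPM and from 278 to 383 TPM. *Sparc*, which binds collagen IV, was the most abundant of the other components, at 3820, 2210 and 2401 TPM in SHF and 7374, 5093 and 9148 TPM in CNC. It too did not overlap, with a log2 fold change of -1.36 ± 0.28 (SE) and an adjusted p of 0.475 by limma. *Fbln1* and *Fbln2*, which encode fibulins, overlapped, at 1557 to 2828 TPM and 393 to 617 TPM in SHF and 1976 to 2140 TPM and 408 to 603 TPM in CNC. Of the glycosylation genes the most abundant were *B4gat1*, at 4.74 to 77.1 TPM in SHF and 58.5 to 82.0 TPM in CNC, and *Gmppb*, at 7.99 to 30.5 TPM and 23.8 to 122.5 TPM.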

How the data were processed

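RNA of GFP+ cells, in 3 SHF and 3 CNC libraries, was analysed at the level the authors deposited, gene TPM in 1 matrix. The authors amplified RNA by SmartSeq2, made libraries with Nextera XT, and ran RSEM 1.2.25 with bowtie2 on mm10, and the annotation is not given in the sources used here. Each library's TPM sum to 1000000, so depth is unknown. Columns were matched to libraries by their library codes. The study's methods name no test of level for these libraries. Nothing says whether a library is 1 mouse or a pool, and p-values set the difference between lineages against the spread between these libraries.

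Levels were tested across genes with limma 3.58.1 in R 4.3.3 (eBayes with a trend) on log2(TPM + 1) for the 10185 genes that reached 1 TPM in 3 or more libraries, which understates the fold of low genes. Single genes had exact permutation tests. Positions are from GENCODE M21 (GRCm38), matched for 30 of 30 symbols. Alternatives were pseudocounts of 0.1 and 5, other filters, rescaling, quantile normalization, no trend, library weights, a replicate block and each library left out. Named genes were the set, by rule, and the 3 most abundant of each pathway list, of which some values are not reported here. *Xist* and *Ddx3y* were added after their values were seen. Of the pathway genes listed, *Hmcn2* was among those not analysed here. The set and lists were chosen with earlier results of these data known. Python 3.11.15, pandas 2.3.3 and matplotlib 3.10.9 were used.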

Additional observations from a re-analysis of the deposited data

How the results depend on the processing

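No basement membrane gene passed the threshold in the fit reported or under any alternative run, and the smallest adjusted p by limma over all of these was 0.639. Across all genes the count past the threshold was 1 with a pseudocount of 5 and 0 under the other settings. None of the 30 was exclusive to a lineage under any threshold tried or with any library left out. Only the 2 rescalings could bring lineages into overlap, since the other settings keep the order of the libraries or drop one. *Col4a6*, *Nid1* and *Lamc1* kept lineages apart under both, and *Smoc2* did so under median-of-ratios rescaling but not under quantile normalization, where *Lama2* took its place. At an unadjusted p under 0.05 by limma *Smoc2*, higher in CNC, joined *Col4a6* with median-of-ratios rescaling, with library weights and without SHF replicate 2. In place of *Col4a6* there was *Smoc2* without CNC replicate 2, *Col4a1*, higher in CNC, without SHF replicate 1, and *Agrn*, higher in SHF, without CNC replicate 1. Leaving out a library relaxes that rule, and the number of genes with SHF above then ran from 1 to 3 and with CNC above from 4 to 6, while the share of all genes rose to 9.995% to 12.9% and to 9.53% to 12.1%. The highest with SHF above, 3, came without SHF replicate 3, and it was 2 without SHF replicate 2 or any 1 of the CNC replicates. With CNC above the highest, 6, came without SHF replicate 1, and it was 5 without replicate 2 of either lineage. Median-of-ratios rescaling gave 4, with *Lama2* added. The shares of *Lama2*, *Lama4*, *Lamb2* and *Nid1* and the ratio of *Col4a1* to *Col4a2* moved by less than 1 SD when TPM were summed over a lineage. Leaving out 1 of 3 libraries cannot move a mean by that much.

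Of 374 alternative log2 fold changes, 347 kept their sign and 27, in 10 genes, did not. With one library left out at a time, values ran from -0.55 to 0.14 for *Col4a3*, from -0.21 to 0.64 for *Col4a4*, from -0.36 to 0.20 for *Col4a5*, from -0.75 to 0.18 for *Col18a1*, from -0.37 to 0.27 for *Lama5*, from -0.19 to 0.41 for *Lamb1*, from -0.0264 to 0.38 for *Hspg2*, from -0.20 to 0.40 for *Dag1* and from -2.25 to 0.99 for *Tinagl1*, which was 0.99 without SHF replicate 3. Without a turn of sign they ran from -1.08 to -0.27 for *Col4a2*, from -1.03 to -0.44 for *Col15a1*, from -0.16 to -0.04 for *Lama2*, from -1.60 to -0.28 for *Lama4*, from -0.46 to -0.12 for *Lamb2*, from -0.68 to -0.16 for *Lamc3*, from 0.09 to 1.55 for *Nid2* and from 0.02 to 0.53 for *Smoc1*. Library weights gave 0.0794 for *Col18a1*, -0.21 for *Lama5*, -0.0421 for *Lamb1* and -0.0289 for *Smoc1*. *Lama5* was -0.008 with a pseudocount of 0.1, -0.0577 with median-of-ratios rescaling and -0.11 with quantile normalization, and *Dag1* was -0.0079 with that rescaling. The cause was not tested.

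Replicate numbers are shared between lineages but mark separate libraries. The deviations of same-numbered libraries from their lineage means correlated at -0.011, -0.004 and -0.011 for replicates 1, 2 and 3, so no pairing was seen. Such a correlation cannot show whether same-numbered libraries were prepared together, which the labels do not say. With a replicate block 0 genes passed the threshold, and *Col4a6* had an unadjusted p of 0.0614 by limma. Unknown depth limits what can be said of values at 0.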
